A study of Mus musculus with 133 samples.

Results

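Chemokine ligand genes were followed in 48 and 79 mammary tumors of PyMT-transgenic mice, whose arrays bear 2 kinds of titles. They were the named genes on the array whose symbol is Ccl, Cxcl, Cx3cl or Xcl followed by a number and which had a probeset naming that gene alone, 34 of 19938 genes. Where a gene had several such probesets, the one with the highest mean was used, which applied to 2 members, Ccl19 and Ccl25. The 7 probesets that name several chemokine genes at once were not used, and Ccl21 and Ccl27 genes are not analysed here. Every tumor came from 1 group, PyMT-positive F1 females bred from Diversity Outbred females of generation 5 and MMTV-PyMT males. MMTV is the mouse mammary tumor virus promoter, which drives the polyoma middle T oncogene mainly in mammary epithelium, so each mouse carried the same transgene on its own mix of founder alleles. The animals had no treatment and tumors were taken when the burden neared the humane endpoint, with no age given in the labels. RNA of each tumor was hybridized to an Affymetrix Mouse Gene 1.0 ST array, and values are RMA values on the log2 scale.

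Chemokines are small secreted or membrane-held proteins that bind G protein-coupled receptors on leukocytes and draw those cells along a gradient. The CC and CXC families are named for the spacing of their first cysteines, and many members sit in tandem clusters on the same chromosome. In mammary tumors, CC ligands of monocytes are known for recruiting macrophages, interferon-inducible CXC ligands for recruiting T cells, and lymphoid chemokines for organizing B and T cell zones.

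Of 133 arrays, 6 whose title ends in r were left out. The remaining titles are of 2 kinds, 48 that open with a running number, called numbered titles here, and 79 of another form, called named titles. The labels do not say whether the kinds mark batches. The array median ran from 6.12 to 6.29 in the numbered titles and from 5.87 to 6.36 in the named titles, so values were centered within each kind or the kind was a term of the fit. The tissue label was met by the epithelial genes Krt8, Krt18, Epcam and Cdh1, whose mean levels exceeded those of at least 98.4% of all genes. Several tumors stood apart. The tumors of animals 14094, 14262 and 14322, all with named titles, had the 3 highest values of the pan-leukocyte gene Ptprc in that series (10.22, 9.32 and 9.69). The tumors of animals 14095 (numbered) and 14094 (named) had Muc19, a salivary mucin gene, at 13.00 and 12.96, with no other tumor above 6.09. The tumor of animal 14312 had the highest value relative to its series for 6 chemokine genes of low level and the lowest for Cx3cl1. Results that rest on these tumors are given with and without them. In bulk tumor RNA, fewer cells of a type and less RNA per cell cannot be told apart.

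The chemokine genes were mostly low on the array and varied more than most genes. The mean level of 23 of the 34 lay under the median gene, and 10 lay under the 25th percentile. The SD between tumors, within title series, had a median of 0.35 over the members against 0.22 over all genes, and 14 of the 34 members exceeded the 90th percentile of all genes, 0.43. The plot of single tumors shows the range of each gene.

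**Figure D1:**
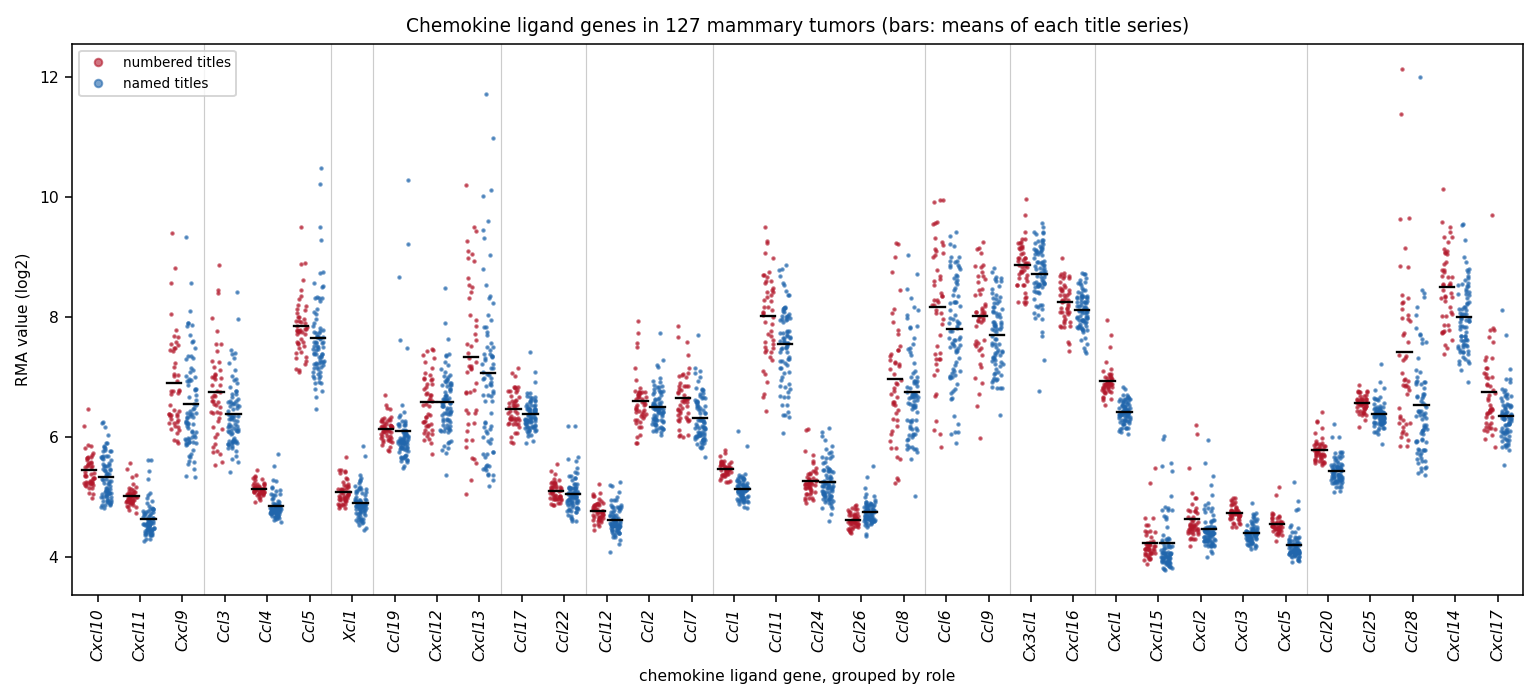
RMA values (log2, vertical axis) of the 34 chemokine ligand genes, grouped by role along the horizontal axis, in 48 tumors with numbered titles (red, left) and 79 with named titles (blue, right). Each point is 1 tumor and each bar the mean of a title series. Cxcl13 and Ccl28 spread over more than 6 log2 units, while Cxcl3 and Ccl26 stayed within a band of less than 1.2.

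Cxcl13 ranged from 5.06 to 10.20 with a median of 7.18 in the numbered titles, and from 5.18 to 11.73 with a median of 6.97 in the named titles. This B cell attractant had the widest spread of all members, with an SD of 1.32 (n = 48 and 79). Ccl28 ranged from 5.85 to 12.14 with a median of 7.02 in the numbered titles, and from 5.38 to 12.00 with a median of 6.37 in the named titles. Ccl28, made by mucosal and exocrine epithelium, was second with an SD of 1.14, and its highest tumors were those of animals 14095 and 14127 among numbered titles and 14094 among named titles. The next SDs were 0.95 for Ccl6, 0.86 for Ccl8 and 0.78 for Cxcl9, and for these 3 genes between 14 and 23 tumors lay over 1 log2 unit above their series mean. Ccl19 ranged from 5.77 to 6.71 with a median of 6.13 in the numbered titles, and from 5.49 to 10.28 with a median of 5.94 in the named titles. Its SD of 0.60 came with a skewed distribution, since 3 tumors lay more than 2 log2 units above their series mean. At the other end, Cxcl3 (0.13), Ccl26 (0.16), Ccl4 (0.16) and Ccl1 (0.17) had the smallest SDs, each under the median of all genes. Placings of mean level among all genes are rough, because probesets differ in response.

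The other members ranged over bands of different width, with 4.17 log2 units for Cxcl17 and 4.02 for Ccl5 among the widest. Ccl22 ran from 4.87 to 5.55 in the numbered titles and from 4.60 to 6.19 in the named titles. Ccl17 ran from 5.90 to 7.15 in the numbered titles and from 5.91 to 7.42 in the named titles. Both CCR4 ligands thus covered less than 3 log2 units. Cxcl14 ran from 7.38 to 10.13 among numbered and from 6.92 to 9.55 among named titles, a wider band. Cxcl15, one of the lowest on the array, stayed near its median of 4.15 among numbered and 4.06 among named titles, except for 7 tumors over 1 log2 unit above their series mean. Cxcl2 had 4 such tumors, with medians of 4.53 among numbered and 4.40 among named titles and highest values of 6.20 and 5.96. Cxcl1, Ccl17 and Cxcl5 had 1 each, and Ccl1, Ccl4, Ccl12, Ccl20, Ccl24, Ccl25, Ccl26, Cxcl3, Cxcl11, Cxcl16 and Xcl1 had none.

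Between the title series, 22 of the 34 members differed (limma, adjusted p under 0.05 over all 19938 genes), 21 higher and 1 lower in the numbered titles. The background was 75.3% of all genes called and 69.6% higher, so the members' share was no larger than that of other genes. The difference of all genes had a median of 0.18 log2, and it was 0.24 for the members. After quantile normalization 14 members differed, 9 higher and 5 lower, with 60.3% of all genes called, and with the array median as a term 9 differed, 4 higher and 5 lower, with 61.3% called. Cxcl1 averaged 6.93 ± 0.25 in the numbered titles and 6.42 ± 0.17 in the named titles (SD, n = 48 and 79), a difference of 0.51 (limma adjusted p = 3.1e-25). It remained higher after quantile normalization (0.29) and with the array median as a term (0.36). Cxcl14 differed by 0.51, 0.28 and 0.61 under the same 3 treatments, and Ccl28 by 0.88, 0.66 and 0.98, all called. Ccl26 was lower in the numbered titles under each of them, by -0.13, -0.29 and -0.43. Ccl4 changed sign, with 0.30 and 0.12 but -0.11 with the array median as a term, all 3 called. All later values are within title series.

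Co-variation was measured by fitting every other gene on each member in turn with limma, 34 fits of 19937 genes, with the title series as a term. A gene is said here to rise with a member where its slope was positive at an adjusted p under 0.05 over that fit, and to fall where it was negative. Correlations are Pearson's r and Spearman's rho over the 48 numbered and 79 named tumors, and the permutation p of both (100000 shuffles within title series) was 1e-05, the smallest they can give, for each relation below unless another value stands beside it. Square brackets after an r hold r among numbered titles, r among named titles and r after leaving out the 2 tumors farthest from the median of the chemokine, and limma called each such relation unless an adjusted p stands beside it. Of the 561 pairs of members, 161 were called in both directions of the fit, 150 with r above 0 and 11 below. Read as ordered relations, 31.3% of member with member relations were called, against 25.1% of the members' relations with all genes. In 156 of the 161 pairs r had the same sign in both title series, and 29 pairs had r of at least 0.5. The map of pairs by role shows where these lay.

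**Figure D2:**
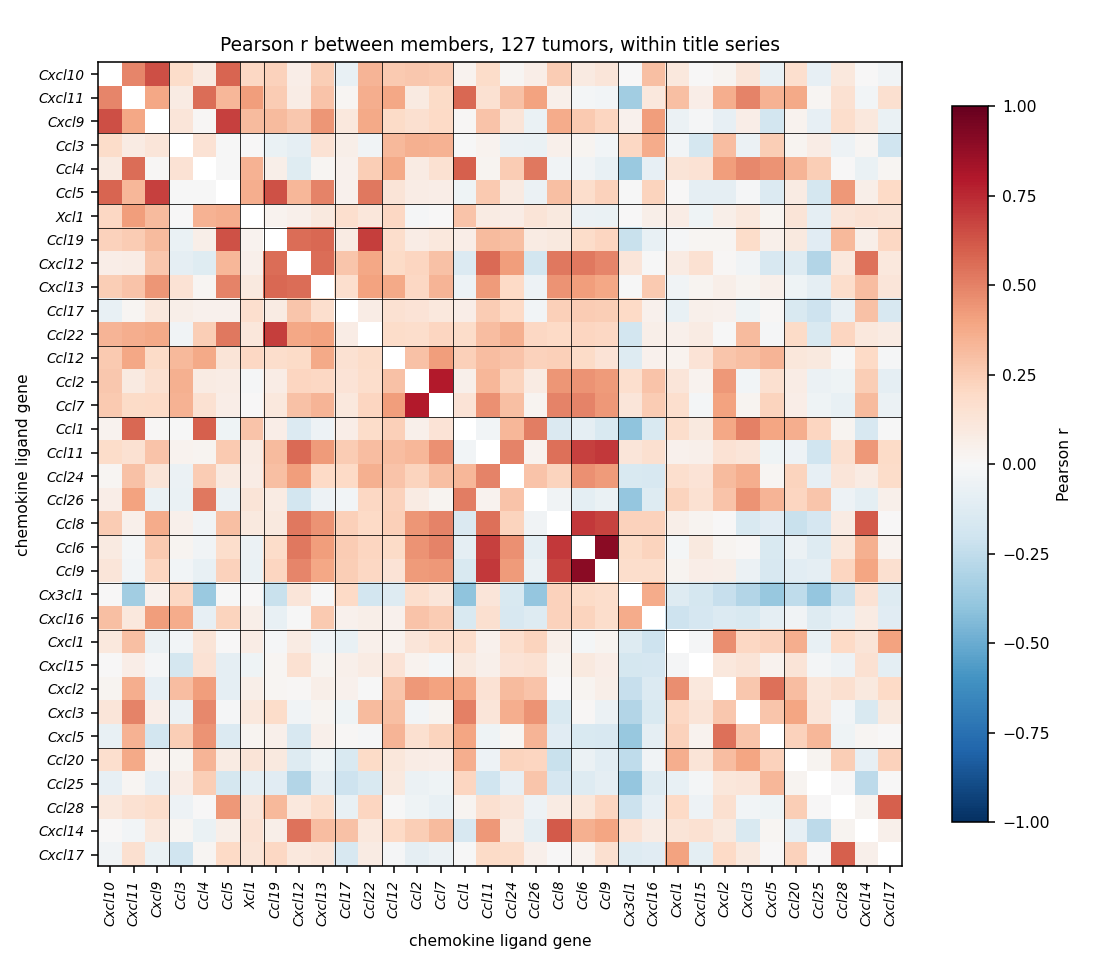
Pearson r within title series between each pair of the 34 chemokine ligand genes over the 48 numbered and 79 named tumors, with genes on both axes grouped by role and color from blue (negative) to red (positive). Among the darkest red cells are Ccl6 with Ccl9, Ccl2 with Ccl7, and Ccl8 and Ccl11 each with Ccl6 and Ccl9. Ccl19 with Ccl22 and Ccl5 with Cxcl9 are of similar color (r = 0.69 and 0.68). Cx3cl1 forms a pale blue row against the low-level genes.

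The closest pair was Ccl6 and Ccl9, myeloid CC ligands that sit side by side on chromosome 11. They followed each other with r = 0.90 (95% interval 0.87 to 0.93) and rho = 0.89, r = 0.90 among numbered titles, 0.90 among named titles and 0.90 after leaving out the 2 tumors farthest from the Ccl6 median (limma adjusted p = 4.7e-44). Ccl2 and Ccl7, ligands of the monocyte receptor CCR2 and also neighbors on chromosome 11, had r = 0.79 (95% interval 0.71 to 0.85) and rho = 0.76, r = 0.83 among numbered titles, 0.76 among named titles and 0.75 after leaving out the 2 tumors farthest from the Ccl2 median (limma adjusted p = 3.6e-24). Ccl8 and Ccl11 joined the first pair. Ccl8 with Ccl6 had r = 0.71 [0.77, 0.65, 0.68], rho = 0.74, Ccl11 with Ccl9 r = 0.70 [0.71, 0.70, 0.68], rho = 0.69, and Ccl11 with Ccl6 r = 0.69 [0.73, 0.65, 0.66], rho = 0.65. Ccl8 also rose with Cxcl14 (r = 0.61 [0.70, 0.54, 0.59], rho = 0.55). These pairs held in both title series, with r between 0.54 and 0.77. The 4 lowest r values all involved Cx3cl1. Its r was -0.41 with Ccl1, -0.39 with Ccl25, -0.38 with Ccl26 and -0.38 with Cxcl5, with values between -0.50 and -0.15 among numbered titles and between -0.48 and -0.35 among named titles. The permutation p of these 4 was between 3e-05 and 0.00012 for r and between 0.00133 and 0.0103 for rho, and without the 2 farthest tumors r shrank to between -0.24 and -0.20. Without animal 14312 alone, Cx3cl1 had r = -0.24 with Cxcl5 and -0.26 with Ccl1. By limma, the calls with Cxcl5 and Ccl26 were lost after quantile normalization, at r = -0.12 (adjusted p = 0.51) and -0.093 (adjusted p = 0.57), that with Ccl26 also with the array median as a term, at -0.24 (adjusted p = 0.051), and those with Cxcl5 and Ccl25 on ranks, at -0.20 (adjusted p = 0.12) and -0.26 (adjusted p = 0.089). With the arrays of suffix r included, limma lost those with Ccl26, Ccl1 and Ccl25, at r = -0.059 (adjusted p = 0.63), -0.12 (adjusted p = 0.27) and -0.15 (adjusted p = 0.18), without the 4 arrays of lowest correlation that with Cxcl5, at -0.20 (adjusted p = 0.13), and in the numbered titles alone those with Cxcl5, Ccl1 and Ccl25.

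Members were also grouped by position, taking genes at most 200 kb apart as 1 cluster (RefSeq positions on GRCm38.p6). Pairs inside a cluster had a mean r of 0.24 over 42 pairs, 33 of them above 0, and other pairs 0.13 over 519 pairs, 379 above 0. The clusters differed among themselves. Cxcl9, Cxcl10 and Cxcl11 (chr5:92321331-92363296) had a mean r of 0.50 over 3 pairs. The 6 genes Ccl2, Ccl7, Ccl11, Ccl12, Ccl8 and Ccl1 (chr11:82035577-82179812) had 0.31 over 15 pairs. In the cluster of Ccl5, Ccl9, Ccl6, Ccl3 and Ccl4 (chr11:83525778-83664683), the mean was 0.13 over 10 pairs, and 5 of these were at or below 0 although it holds the closest pair of all. Ccl3 and Ccl4, both inflammatory CC ligands, lie there together and had r = 0.14 [0.17, 0.15, 0.11], rho = 0.089, permutation p = 0.083 and 0.31, limma adjusted p = 0.58. Ccl22, Cx3cl1 and Ccl17 (chr8:94745684-94812038) averaged 0.03 over 3 pairs.

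The leukocyte genes each member followed were counted in 8 lists of marker genes, and in further lists for interferon and NF-kB response, stroma and epithelium. Over all 34 members, 1390 of 3842 relations with leukocyte genes rose (36.2%) and 2.81% fell, against 16.2% and 8.96% of relations with all genes. Percentages beside a member are the share of all 19937 genes that rose with it, unless said otherwise, and where 2 permutation p values follow r and rho, the first is that of r. The map of lists gives the median r and the counts of each member.

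**Figure D3:**
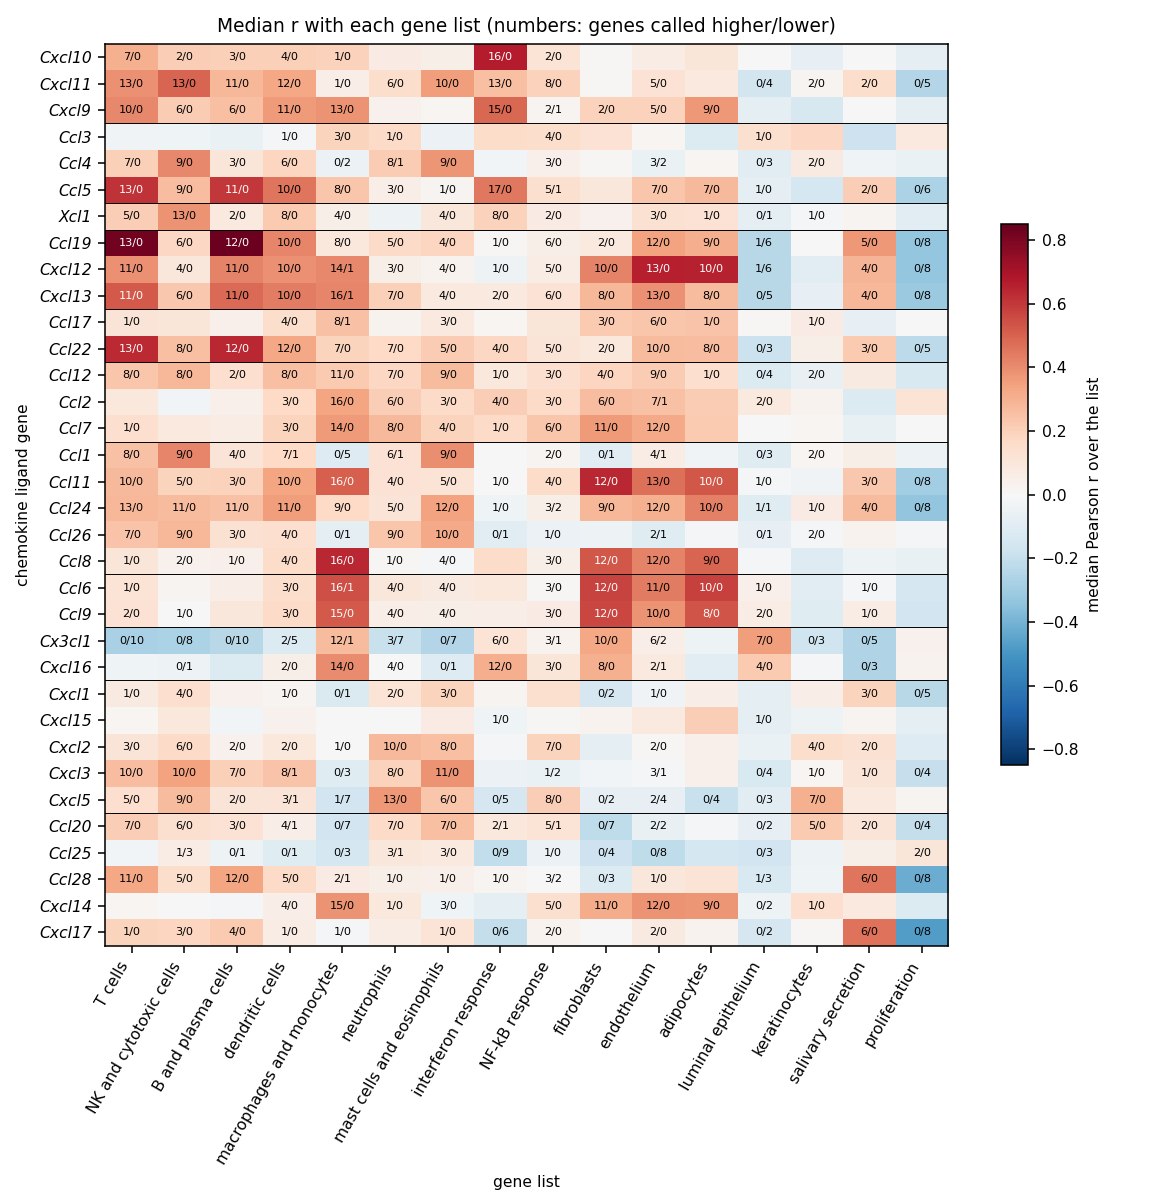
Median Pearson r (color, blue negative to red positive) of each chemokine ligand gene (rows, grouped by role) with the measured genes of 16 lists (columns), over the 48 numbered and 79 named tumors within title series. Numbers in a cell are list genes called higher and lower; cells without one had none. Ccl19 and Ccl22 are darkest for T and B cells, Ccl6, Ccl8, Ccl9 and Ccl11 for macrophages and fibroblasts, Cxcl10 for interferon response, and Ccl28 and Cxcl17 for salivary secretion.

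Cxcl9, Cxcl10 and Cxcl11, the interferon-inducible ligands of CXCR3, moved with interferon response genes. RefSeq (GRCm38.p6) annotates Cxcl11 as a transcribed pseudogene, and the other 33 members as protein coding. Cxcl9 ranged from 5.90 to 9.40 with a median of 6.75 in the numbered titles, and from 5.34 to 9.33 with a median of 6.39 in the named titles. Cxcl10 ranged from 4.99 to 6.47 with a median of 5.38 in the numbered titles, and from 4.83 to 6.26 with a median of 5.27 in the named titles. The title series overlapped over nearly the whole range of both genes. Of the 18 interferon response genes measured, 16 rose with Cxcl10 (1.8% of all genes, median r 0.67 against -0.018 over all genes), 15 with Cxcl9 (4.3%, 0.49 against -0.038) and 13 with Cxcl11 (40.3%, 0.26 against 0.094). The gene closest to Cxcl10 was Trim30a, an interferon-induced TRIM protein gene, with r = 0.76 (95% interval 0.68 to 0.83) and rho = 0.76, r = 0.82 among numbered titles, 0.74 among named titles and 0.75 after leaving out the 2 tumors farthest from the Cxcl10 median (limma adjusted p = 1.8e-21). Cxcl10 and Cxcl9 had r = 0.64 (95% interval 0.53 to 0.73) and rho = 0.63, r = 0.64 among numbered titles, 0.65 among named titles and 0.64 after leaving out the 2 tumors farthest from the Cxcl10 median (limma adjusted p = 1.2e-13). Cxcl10 with Cxcl11 had r = 0.48 [0.56, 0.47, 0.46], rho = 0.55, and Cxcl11 with Cxcl9 had r = 0.38 [0.48, 0.36, 0.44], rho = 0.40, permutation p = 6e-05 and 1e-05. With Cxcl9, 13 of 19 macrophage and 10 of 13 T cell genes rose, and its closest gene was Ms4a4c (r = 0.71 [0.79, 0.67, 0.75], rho = 0.71). With Cxcl10, 7 of 13 T cell genes and 1 of 19 macrophage genes rose, with 11 macrophage genes at an unadjusted p under 0.05, against 17 with Cxcl9. The median r with macrophage genes was 0.20 for Cxcl10 and 0.38 for Cxcl9, and the difference between the 2 ligands was not tested. With Ptprc as a further term, 16 of the 16 interferon genes remained called with Cxcl10 (0.993% of all genes rose), and limma called 0 of the 13 T cell genes (0 at an unadjusted p under 0.05).

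The promoter of Cxcl10 is shown because it holds an interferon-stimulated response element, the motif bound by interferon-activated factors. Capitals mark the ISRE (GAAANNGAAA) and, after it, a pair of NF-kB motifs. The sequence is from RefSeq (GRCm38.p6), 5′ to 3′ on the gene's strand, with coordinates chr5:92348970-92349119 on the minus strand for Cxcl10.
Cxcl10: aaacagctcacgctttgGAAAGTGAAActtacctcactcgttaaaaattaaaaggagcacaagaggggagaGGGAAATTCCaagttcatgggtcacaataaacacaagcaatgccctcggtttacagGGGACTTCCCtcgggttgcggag
The RefSeq promoter table, 250 bases before to 50 after the start, has an entry for 23 of the 34 members (24 promoters). An ISRE on either strand was in 3 of these 24 (12.5%), those of Ccl19, Cxcl10 and Cxcl14, against 3.44% of all 32851 promoters. The GAS motif (TTCNNNGAA), bound by STAT dimers, was in 2 of 24 (8.33%), Ccl17 and Cxcl14, against 8.3% of all. The NF-kB motif was in 6 of 24 (25.0%), Ccl20, Ccl9, Cxcl1, Cxcl10, Cxcl2 and Cxcl3, against 4.51% of all. These shares describe letters in the window, and Cxcl14, with both interferon motifs, had a median r of -0.084 with interferon response genes.

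Ccl5, an inflammatory CC ligand made by T and NK cells among others, moved with T cell and interferon response genes. Ccl5 ranged from 7.09 to 9.50 with a median of 7.79 in the numbered titles, and from 6.47 to 10.49 with a median of 7.51 in the named titles. The highest tumors were those of animals 14127 and 14273 among numbered titles, and 14262, 14094 and 14322 among named titles. All 13 measured T cell genes rose with it (5.8% of all genes rose), as did 11 of 13 B and plasma cell genes, 9 of 14 NK and cytotoxic genes and 17 of 18 interferon response genes. The closest gene was Nkg7, a cytotoxic granule gene, with r = 0.81 (95% interval 0.73 to 0.86) and rho = 0.70, r = 0.71 among numbered titles, 0.83 among named titles and 0.75 after leaving out the 2 tumors farthest from the Ccl5 median (limma adjusted p = 2e-26). Il2rb, a subunit of the IL-2 receptor, and Cd3g, of the T cell receptor complex, followed (r = 0.80 [0.67, 0.84, 0.74], rho = 0.66 and r = 0.80 [0.62, 0.84, 0.72], rho = 0.67). Ccl5 and Cxcl9 rose together (r = 0.68 [0.76, 0.67, 0.67], rho = 0.66), with r = 0.44 once Ptprc was a further term (limma adjusted p = 5e-05). Without animals 14094, 14262 and 14322, 17 of the 17 interferon genes and 8 of the 13 T cell genes remained called with Ccl5 (2.42% of all genes), and r with Nkg7 was 0.71.

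Xcl1, a ligand of XCR1 secreted by NK and CD8+ T cells, was followed by 13 of 14 NK and cytotoxic genes (21.2% of all genes rose), with a median r of 0.38. Its level was low, with medians of 5.06 among numbered and 4.86 among named titles. The closest genes were Itgae, the CD103 integrin of tissue-resident lymphocytes and some dendritic cells (r = 0.59 [0.60, 0.58, 0.56], rho = 0.58), and Cd7 (r = 0.57 [0.74, 0.51, 0.57], rho = 0.66). Gzmb, which encodes granzyme B, had r = 0.56 [0.51, 0.57, 0.46], rho = 0.50. With the array median as a term, 7 of 14 of these genes rose (5.93% of all genes). Ccl3, a ligand of CCR1, was followed by few genes, 150 of 19937 (0.752%). These included Il1b, the interleukin-1 beta gene (r = 0.48 [0.53, 0.44, 0.44], rho = 0.39), 4 of 15 NF-kB response genes and 3 of 19 macrophage genes. Ccl3 itself ranged from 5.53 to 8.87 in the numbered titles and from 5.42 to 8.41 in the named titles, so the low count came with an SD of 0.62, among the larger ones.

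Ccl19 and Cxcl13, which guide T and B cells in lymphoid tissue, were highest among named titles in the same 3 tumors. In those of animals 14094, 14322 and 14262, Ccl19 reached 10.28, 9.23 and 8.66, while no numbered tumor exceeded 6.71. Cxcl13 reached 11.73, 10.99 and 10.12 in them, but also 10.20 in the numbered tumor of animal 14052. The B cell receptor gene Cd79a reached 9.06, 8.45 and 8.11 in the 3 tumors, with no numbered tumor above 4.94. They were thus the highest named tumors for both ligands and for Cd79a. More than 2 log2 units above their series mean lay 10 tumors for Cxcl13 and 3 for Ccl19. With Ccl19, all 13 measured T cell genes and 12 of 13 B and plasma cell genes rose (8.61% of all genes rose), with median r of 0.82 and 0.83 against 0.0081 over all genes. The closest genes were Bank1, a B cell signaling adaptor, with r = 0.94 (95% interval 0.91 to 0.96) and rho = 0.57, r = 0.49 among numbered titles, 0.95 among named titles and 0.83 after leaving out the 2 tumors farthest from the Ccl19 median (limma adjusted p = 8.1e-56), and Cr2, a complement receptor of B cells (r = 0.94 [0.22, 0.95, 0.83], rho = 0.57). Without the 3 tumors, 13 of these T cell and 12 of these B and plasma cell genes remained called (9.2% of all genes), with median r of 0.48 and 0.45, and r with Cr2 was 0.68. In the numbered titles alone, limma called 0 of 13 B and plasma cell genes as rising (5 at an unadjusted p under 0.05), while 2 of 13 T cell and 9 of 15 dendritic cell genes rose (3.39% of all genes). So did 9 of 10 adipocyte, 9 of 16 endothelial, 6 of 12 fibroblast and 6 of 19 macrophage genes there, and their part in the result was not tested. Over both title series, 9 of 10 adipocyte, 12 of 16 endothelial and 10 of 15 dendritic cell genes rose with Ccl19.

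Ccl22, a ligand of CCR4 made by dendritic cells, kept company with Ccl19 (r = 0.69 [0.24, 0.74, 0.48], rho = 0.38). All 13 T cell genes and 12 of 13 B and plasma cell genes rose with it (13.7% of all genes rose), led by Ltb, which encodes lymphotoxin beta (r = 0.74 [0.53, 0.77, 0.58], rho = 0.52), and Cd3e (r = 0.73 [0.35, 0.78, 0.55], rho = 0.47). Without animals 14094, 14262 and 14322, r with Ccl19 was 0.41 and 9 of 13 B and plasma cell genes rose (14.5%), while in the numbered titles alone the pair had r = 0.24 (limma adjusted p = 0.4 in the Ccl19 fit). In that series limma called 0 of 13 T cell and 0 of 13 B and plasma cell genes with Ccl22. At an unadjusted p under 0.05, 8 and 5 of them rose. The level of Ccl22 was low, above 24.4% of all genes, and had r = 0.31 with the array median. Ccl19 and Ccl5 leaned on the same tumors, with r = 0.64 [0.27, 0.70, 0.51], rho = 0.25, permutation p = 1e-05 and 0.0045, and r = 0.32 without them. The other CCR4 ligand, Ccl17, lies next to Cx3cl1 and Ccl22 and had r = 0.076 with Ccl22 (limma adjusted p = 0.66 in the fit of the higher p). With Ccl17, 1 of 13 T cell genes and 8 of 19 macrophage genes rose (3.85% of all genes), the highest r among leukocyte genes being that of Itgae (r = 0.41 [0.35, 0.47, 0.32], rho = 0.36, permutation p = 1e-05 and 3e-05).

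Cxcl13 rose with Ptprc itself more closely than with any other gene, with r = 0.73 (95% interval 0.64 to 0.80) and rho = 0.66, r = 0.80 among numbered titles, 0.71 among named titles and 0.66 after leaving out the 2 tumors farthest from the Cxcl13 median (limma adjusted p = 1.2e-18). With it rose 16 of 19 macrophage genes, 11 of 13 T cell genes and 11 of 13 B and plasma cell genes (7.84% of all genes rose). Once Ptprc was a further term, limma called 0 of 19936 genes with Cxcl13 in either direction, with 1956 at an unadjusted p under 0.05. Without animals 14094, 14262 and 14322 and with no Ptprc term, 15 of 19 macrophage genes and 12 of 12 fibroblast genes rose with Cxcl13, against 2 of 13 B and plasma cell genes (5.08% of all genes). Cxcl12, the ligand of CXCR4 made by stromal and endothelial cells, had another set of companions. Cxcl12 ranged from 5.72 to 7.47 with a median of 6.58 in the numbered titles, and from 5.37 to 8.48 with a median of 6.56 in the named titles. It was accompanied by 13 of 16 endothelial genes and all 10 measured adipocyte genes, which rose with it (10.9% of all genes rose), with median r of 0.66 and 0.66 against -0.063 over all genes. The closest were Ebf1, a transcription factor of B cells and adipose stroma, with r = 0.81 (95% interval 0.74 to 0.86) and rho = 0.79, r = 0.85 among numbered titles, 0.79 among named titles and 0.79 after leaving out the 2 tumors farthest from the Cxcl12 median (limma adjusted p = 2.5e-27), S1pr1 (r = 0.78 [0.78, 0.78, 0.72], rho = 0.71) and Pecam1, the CD31 gene (r = 0.77 [0.79, 0.77, 0.74], rho = 0.75). With Ptprc as a further term, 13 of the 13 endothelial genes remained called, and limma called 0 of 13 T cell genes as rising, 0 at an unadjusted p under 0.05 (7.89% of all genes rose). Without animals 14094, 14262 and 14322, 13 of 16 endothelial and 10 of 10 adipocyte genes rose with Cxcl12, against 2 of 13 T cell genes (8.95% of all genes).

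A second group, Ccl6, Ccl9, Ccl8 and Ccl11, followed macrophage and connective tissue genes. Ccl6 ranged from 5.84 to 9.96 with a median of 8.26 in the numbered titles, and from 5.91 to 9.42 with a median of 7.78 in the named titles. Ccl9 ranged from 5.98 to 9.26 with a median of 8.06 in the numbered titles, and from 6.36 to 8.83 with a median of 7.75 in the named titles. Ccl8 ranged from 5.24 to 9.23 with a median of 6.89 in the numbered titles, and from 5.01 to 9.04 with a median of 6.67 in the named titles. In each of these genes the title series overlapped over most of the range. The macrophage genes that rose were counted for Ccl6 (16 of 19, 6.85% of all genes), Ccl9 (15 of 19, 6.47%), Ccl8 (16 of 19, 5.94%) and Ccl11 (16 of 19, 9.0%). All 12 fibroblast genes rose with each of these 4 ligands, and 10, 8, 9 and 10 of the 10 adipocyte genes rose with Ccl6, Ccl9, Ccl8 and Ccl11. Adipocyte and fibroblast genes thus moved with these ligands beside the macrophage genes, and their part in the result was not tested. Among the closest leukocyte genes were Clec10a, counted here in the dendritic cell list, and Cd163, Mrc1 and Folr2 of the macrophage list. Ccl6 and Clec10a, a galactose-type lectin gene, had r = 0.88 (95% interval 0.83 to 0.91) and rho = 0.88, r = 0.93 among numbered titles, 0.84 among named titles and 0.87 after leaving out the 2 tumors farthest from the Ccl6 median (limma adjusted p = 2.1e-38). Ccl6 had r = 0.86 [0.89, 0.84, 0.86], rho = 0.87 with the scavenger receptor gene Cd163 and r = 0.88 [0.90, 0.86, 0.87], rho = 0.88 with Dpt, a dermal matrix gene. Ccl8 was closest to Mrc1, the mannose receptor gene, with r = 0.80 (95% interval 0.73 to 0.86) and rho = 0.82, r = 0.86 among numbered titles, 0.74 among named titles and 0.79 after leaving out the 2 tumors farthest from the Ccl8 median (limma adjusted p = 9.6e-26), and next to Folr2 (r = 0.76 [0.84, 0.69, 0.74], rho = 0.77). Ccl9 had r = 0.80 [0.82, 0.79, 0.80], rho = 0.80 with Folr2 and r = 0.83 [0.81, 0.84, 0.84], rho = 0.83 with Ifi205.

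**Figure D4:**
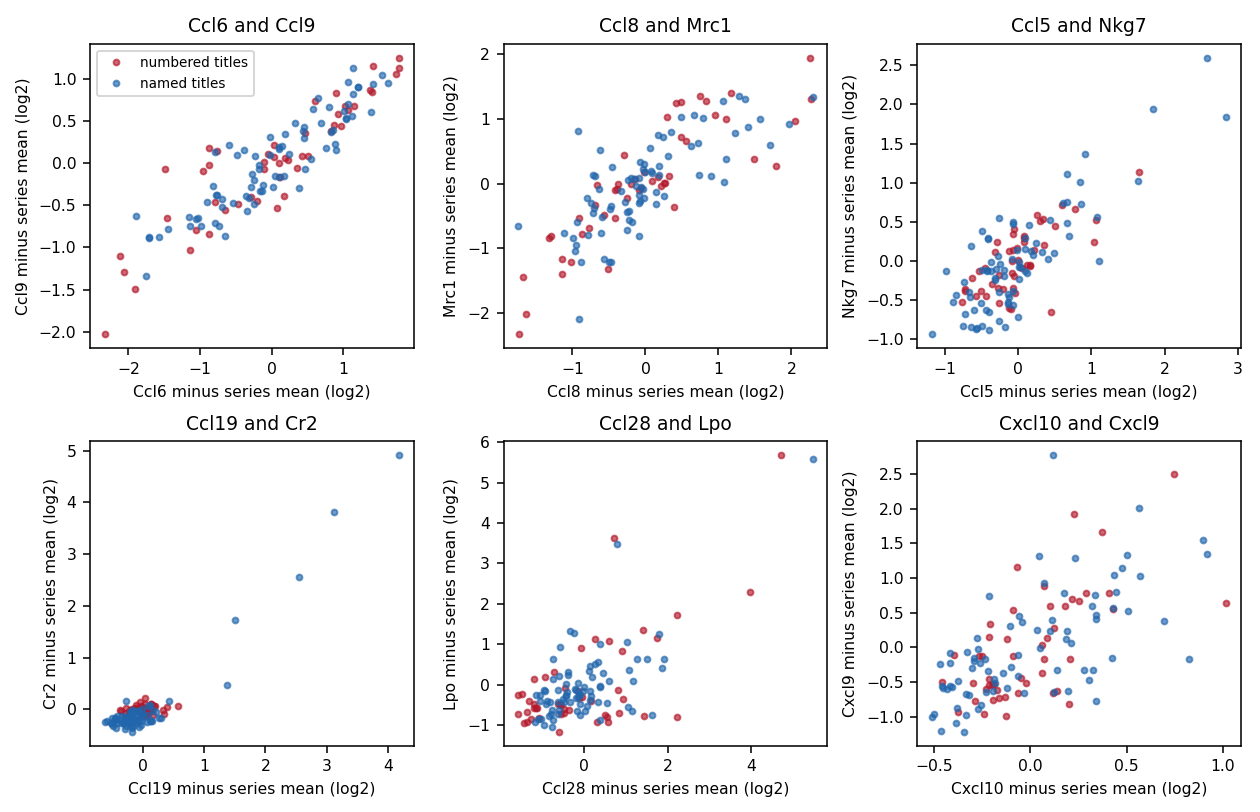
Values of 6 gene pairs in single tumors, each axis a log2 RMA value minus the mean of its title series, with numbered titles in red and named titles in blue. Ccl6 with Ccl9, Ccl8 with Mrc1 and Cxcl10 with Cxcl9 spread along a band of many tumors, while Ccl19 with Cr2 and Ccl28 with Lpo are drawn out by a few tumors.

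The last of these 4 ligands was Ccl11, the eosinophil attractant eotaxin. Ccl11 ranged from 6.44 to 9.51 with a median of 8.08 in the numbered titles, and from 6.06 to 8.87 with a median of 7.60 in the named titles. Its closest genes were Serping1, which encodes the C1 inhibitor, with r = 0.81 (95% interval 0.74 to 0.86) and rho = 0.78, r = 0.83 among numbered titles, 0.80 among named titles and 0.79 after leaving out the 2 tumors farthest from the Ccl11 median (limma adjusted p = 5.5e-27), and the growth factor gene Igf1 (r = 0.79 [0.79, 0.80, 0.77], rho = 0.79). Among leukocyte genes, the mast cell protease gene Cpa3 had r = 0.72 [0.73, 0.71, 0.71], rho = 0.73, close to Clec10a (r = 0.72 [0.74, 0.70, 0.70], rho = 0.71). Cxcl14, expressed by epithelium and fibroblasts, had 11 of 12 fibroblast, 15 of 19 macrophage and 9 of 10 adipocyte genes rising with it (6.46% of all genes), Maf (r = 0.61 [0.73, 0.56, 0.57], rho = 0.58), Serpinf1 (r = 0.61 [0.70, 0.54, 0.59], rho = 0.60) and Mrc1 (r = 0.57 [0.69, 0.47, 0.54], rho = 0.54) among the closest. Without a Ptprc term, T cell genes fell with 1 member, Cx3cl1, and so with neither Ccl8 nor Ccl6. Over all members 11 of 442 relations with B and plasma cell genes fell then (2.49%, against 8.96% with all genes). With Ptprc as a further term, lymphocyte genes fell with Ccl8 and Ccl6. Of these, 10 of 13 T cell and 9 of 13 B and plasma cell genes fell with Ccl8 (5.7% of all genes fell), and 7 of 13 and 9 of 13 fell with Ccl6 (3.84%), while 14 of 19 and 15 of 19 macrophage genes rose (5.07% and 5.01% of all genes). These counts changed with few arrays and with the scale. Without the 4 arrays of lowest correlation, 3 T cell and 6 B and plasma cell genes fell with Ccl8, and 3 and 0 with Ccl6, on ranks the counts were 0 and 2 with Ccl8 and 0 and 0 with Ccl6, and in the numbered titles alone limma called none of them, with 0 at an unadjusted p under 0.05. Ccl24, eotaxin-2, was followed by all 12 measured mast cell and eosinophil genes (35.4% of all genes), Mcpt4 in front (r = 0.61 [0.62, 0.61, 0.56], rho = 0.53), and all 10 adipocyte genes. With the array median as a term 4 of 12 mast cell and eosinophil genes and 10 of 10 adipocyte genes rose with Ccl24 (8.44%).

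Ccl2 and Ccl7, which call in monocytes through CCR2, moved with macrophage and stromal genes. Ccl2 ranged from 5.90 to 7.94 with a median of 6.55 in the numbered titles, and from 6.03 to 7.73 with a median of 6.47 in the named titles. Ccl7 ranged from 6.01 to 7.85 with a median of 6.61 in the numbered titles, and from 5.67 to 7.71 with a median of 6.24 in the named titles. In both genes single tumors reached 1 log2 unit or more above the median of their series. With Ccl2, 16 of 19 macrophage genes rose (2.92% of all genes), while limma called 0 of the 13 T cell and 0 of the 13 B and plasma cell genes as rising (1 and 0 at an unadjusted p under 0.05). With Ccl7, 14 of 19 macrophage and 8 of 15 neutrophil genes rose (4.48%). Of the stromal lists, 11 of 12 fibroblast and 12 of 16 endothelial genes rose with Ccl7, and 6 of 12 fibroblast and 7 of 16 endothelial genes with Ccl2. Limma called 0 of 10 adipocyte genes with either ligand, 8 with Ccl7 and 8 with Ccl2 at an unadjusted p under 0.05, but in the numbered titles alone 8 of 10 rose with Ccl7 (3.49% of all genes) and 8 of 10 with Ccl2 (1.53%). The part of the stromal genes in the result was not tested. After each other, their closest gene was B4galt5, a galactosyltransferase gene (r = 0.62 [0.67, 0.56, 0.59], rho = 0.61 with Ccl2, r = 0.74 [0.82, 0.67, 0.70], rho = 0.67 with Ccl7). Among leukocyte genes the highest were Clec4e for Ccl2 (r = 0.50 [0.62, 0.40, 0.45], rho = 0.42) and Mrc1 for Ccl7 (r = 0.53 [0.65, 0.42, 0.52], rho = 0.50). Ccl12 is the third CCR2 ligand of the mouse. Its r with Ccl2 was 0.29 (rho = 0.25, permutation p = 0.00057 and 0.0055), its level was low, and of the leukocyte genes 61 rose with it (27.5% of all genes), but 6 once the array median was a term (0.727%).

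The 2 ligands that are anchored in the membrane, Cx3cl1 and Cxcl16, moved with macrophage and fibroblast genes. Cx3cl1 ranged from 8.22 to 9.96 with a median of 8.89 in the numbered titles, and from 6.77 to 9.58 with a median of 8.74 in the named titles. Cxcl16 ranged from 7.43 to 8.99 with a median of 8.27 in the numbered titles, and from 7.40 to 8.73 with a median of 8.11 in the named titles. The title series overlapped in both genes, and the lowest Cx3cl1 value is that of the tumor of animal 14312. Cxcl16 was higher in the numbered titles by 0.13 (limma adjusted p = 0.037), which was not called after quantile normalization (-0.09) or with the array median as a term. Cx3cl1 differed by 0.16 (limma adjusted p = 0.081), by -0.057 after quantile normalization (limma adjusted p = 0.57), and by 0.69 with the array median as a term (limma adjusted p = 3.4e-05). With Cx3cl1, 12 of 19 macrophage, 10 of 12 fibroblast and 7 of 10 luminal epithelial genes rose (15.7% of all genes), and 10 of 13 T cell and 10 of 13 B and plasma cell genes fell (37.1% of all genes fell). Its closest genes were Tcf7l2, a Wnt pathway transcription factor (r = 0.68 [0.67, 0.70, 0.63], rho = 0.64), and Niban2 (r = 0.67 [0.58, 0.70, 0.64], rho = 0.65), and among leukocyte genes Cd14, the lipopolysaccharide co-receptor gene, with r = 0.61 (95% interval 0.48 to 0.71) and rho = 0.62, r = 0.61 among numbered titles, 0.62 among named titles and 0.58 after leaving out the 2 tumors farthest from the Cx3cl1 median (limma adjusted p = 1.9e-11). Cx3cl1 fell with the array median (r = -0.35). With that median as a term 12 of 19 macrophage and 7 of 10 luminal genes rose (12.9%), and 4 of 13 T cell genes fell (24.0%). With Cxcl16, 14 of 19 macrophage, 8 of 12 fibroblast and 12 of 18 interferon response genes rose (4.67%), and limma called 0 of 13 T cell genes as rising, 1 at an unadjusted p under 0.05. C3ar1 and Ctss, a complement receptor and the cathepsin S gene of phagocytes, were closest (r = 0.66 [0.77, 0.57, 0.64], rho = 0.63 and r = 0.66 [0.76, 0.60, 0.64], rho = 0.62), with Adgre1, the F4/80 gene, at r = 0.60 [0.68, 0.54, 0.58], rho = 0.59.

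The neutrophil-attracting ligands Cxcl1, Cxcl2, Cxcl3 and Cxcl5 act through CXCR2 and lie together on chromosome 5. The promoters of Cxcl1, Cxcl2 and Cxcl3 are shown because the same 11 letters, which hold 2 overlapping NF-kB motifs, stand before the start of each. They are from RefSeq (GRCm38.p6), 5′ to 3′, with these letters in capitals, and lie at chr5:90891135-90891224 on the plus strand for Cxcl1, chr5:90903764-90903853 on the plus strand for Cxcl2 and chr5:90785991-90786080 on the plus strand for Cxcl3.
Cxcl1: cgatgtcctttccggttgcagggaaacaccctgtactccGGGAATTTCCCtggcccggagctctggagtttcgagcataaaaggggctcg
Cxcl2: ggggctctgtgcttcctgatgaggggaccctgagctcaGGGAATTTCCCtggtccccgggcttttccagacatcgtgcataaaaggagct
Cxcl3: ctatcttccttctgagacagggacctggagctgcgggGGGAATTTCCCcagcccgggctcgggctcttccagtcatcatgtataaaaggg
The r values between these 3 genes ran from 0.20 to 0.47. Cxcl3 had a low level, above 16.1% of all genes, and the smallest SD of all members, 0.13. This limits what its r can show. Cxcl1 and Cxcl2 had r = 0.47 [0.63, 0.30, 0.31], rho = 0.44, Cxcl2 and Cxcl3 r = 0.27 [0.22, 0.30, 0.21], rho = 0.25, permutation p = 0.0022 and 0.0047, and Cxcl1 and Cxcl3 r = 0.20 [0.21, 0.22, 0.10], rho = 0.12, permutation p = 0.017 and 0.17, limma adjusted p = 0.086. Cxcl2 and Cxcl5 had r = 0.55 [0.40, 0.65, 0.36], rho = 0.34, permutation p = 1e-05 and 8e-05.

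Cxcl5 moved with neutrophil and keratinocyte genes. Cxcl5 ranged from 4.27 to 5.17 with a median of 4.52 in the numbered titles, and from 3.91 to 5.26 with a median of 4.12 in the named titles. Few tumors stood out, those of animals 13976 and 14185 among numbered and 14312 and 14320 among named titles. With it rose 13 of 15 neutrophil genes and 7 of 9 keratinocyte genes (36.8% of all genes), with median r of 0.37 and 0.31 against 0.10 over all genes. The closest gene was Defb14, a beta-defensin gene of skin, with r = 0.69 (95% interval 0.59 to 0.77) and rho = 0.43, r = 0.53 among numbered titles, 0.76 among named titles and 0.50 after leaving out the 2 tumors farthest from the Cxcl5 median (limma adjusted p = 3.1e-15). Trem1, an activating receptor of neutrophils and monocytes, had r = 0.59 [0.42, 0.64, 0.43], rho = 0.36, permutation p = 1e-05 and 5e-05. Without animal 14312, 12 of 15 neutrophil and 7 of 9 keratinocyte genes rose (20.0% of all genes), and with the array median as a term 7 of 15 and 6 of 9 did (14.7%). Cxcl2 was followed by 10 of 15 neutrophil and 7 of 15 NF-kB response genes (30.8% of all genes), its closest gene being Il6, the interleukin-6 gene (r = 0.56 [0.56, 0.57, 0.27], rho = 0.31, permutation p = 1e-05 and 0.00025). Without animal 14312 these counts were 5 of 15 and 4 of 15 (6.12%), and with the array median as a term 1 of 15 and 1 of 15 (0.176%). Cxcl15, the lung CXC ligand, was followed by 36 genes (0.181%), none of them in a leukocyte list. They included Pgr, the progesterone receptor gene, with r = 0.71 (95% interval 0.61 to 0.79) and rho = 0.59, r = 0.75 among numbered titles, 0.70 among named titles and 0.66 after leaving out the 2 tumors farthest from the Cxcl15 median (limma adjusted p = 8.2e-17), Cyp3a57 (r = 0.73 [0.70, 0.74, 0.69], rho = 0.62) and Ido1 (r = 0.66 [0.70, 0.66, 0.66], rho = 0.59).

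Ccl28 and Cxcl17, mucosal ligands, moved with salivary gland genes, and the same 2 tumors were the highest of their title series for both. Ccl28 reached 12.14 in the tumor of animal 14095 and 12.00 in that of animal 14094, and Cxcl17 9.70 and 8.12 in the same tumors. Lpo, the lactoperoxidase gene and not one of that list, reached 12.44 and 12.12 there. These are the tumors with the high Muc19, each the highest of its title series for all 3 genes. Other tumors came near them. Ccl28 reached 11.39 in the numbered tumor of animal 14127. For Cxcl17, the tumors of animals 14182 (numbered, 7.83), 14127 (numbered, 7.79) and 14002 (named, 7.70) lay close to that of animal 14094. All 6 salivary secretion genes rose with each ligand, and all 8 proliferation genes fell (6.99% of all genes rose and 7.77% fell with Ccl28, 6.17% and 8.32% with Cxcl17). Ccl28 and Lpo had r = 0.67 (95% interval 0.56 to 0.76) and rho = 0.43, r = 0.67 among numbered titles, 0.66 among named titles and 0.48 after leaving out the 2 tumors farthest from the Ccl28 median (limma adjusted p = 6e-14), and Ccl28 and Cxcl17 had r = 0.60 [0.68, 0.48, 0.41], rho = 0.44. Without the tumors of animals 14094 and 14095, 0 of 6 salivary and 0 of 8 proliferation genes were called by limma with Ccl28, 1 and 1 at an unadjusted p under 0.05 (0.577% of all genes rose and 0.0702% fell), and the same counts with Cxcl17 were 0 of 6 and 0 of 8, with 1 and 0 unadjusted (0.281% and 0.12%). The pair then had r = 0.41 (limma adjusted p = 0.0011 in the Ccl28 fit), and Ccl28 with Lpo r = 0.48 (adjusted p = 4.8e-05 by limma). Ccl28 also rose with 12 of 13 B and plasma cell genes, led by Jchain, the antibody joining chain gene (r = 0.45 [0.39, 0.51, 0.34], rho = 0.31, permutation p = 6e-05 and 0.00049), and with 1 of 13 without those tumors. With Ptprc as a further term the B and plasma cell count was 2 of 13 (4.96% of all genes).

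Proliferation genes stood on the other side of several ligands. Over all members 85 of 272 relations with them fell (31.2%) and 2 rose, against 8.96% of relations with all genes falling. At least 4 of the 8 genes fell with 13 members, and all 8 with Ccl11, Ccl19, Ccl24, Ccl28, Cxcl12, Cxcl13 and Cxcl17. Of all genes, 9.06%, 11%, 16.8%, 7.77%, 12.8%, 7.47% and 8.32% fell with these 7 in turn. Without animal 14094, however, limma called 0 of 8 with Ccl19 and 0 of 8 with Cxcl13, 0 and 8 at an unadjusted p under 0.05 (1.34% and 2.88% of all genes), against 4 of 8 with Cxcl12 (7.86%). Without animals 14094 and 14095, as given above, it called 0 of 8 with Ccl28 and 0 of 8 with Cxcl17 (0.0702% and 0.12% of all genes fell).

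The lists of epithelium and other tissues are given by their share of called relations over all members. Of relations with luminal epithelial genes 24 of 340 rose (7.06%) and 56 fell (16.5%). Of those with milk secretion genes 24 of 238 rose (10.1%) and 22 fell (9.24%). With all genes, 8.96% of relations fell. Fibroblast genes rose in 32.8% of their relations and endothelial genes in 37.1%. For keratinocytes the share was 10.1%, for the myoepithelial and basal list 11.1% and for skeletal muscle 7.35%, all to be read against the 16.2% of all relations. Pan-leukocyte genes rose in 41.9%, dendritic cell genes in 36.5% and chemokine receptor genes in 32.8%.

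A last set of members was defined by co-variation with odorant and vomeronasal receptor genes. Their mean levels lay under the median gene, with Ccl25 the highest, above 46.7% of all genes. The 1190 odorant and vomeronasal receptor genes on the array, which are not known to be expressed in mammary tumors, served as a gauge. For 10 members the median r with these genes was at least 0.25, with 0.54 for Ccl4, 0.53 for Ccl1, 0.44 for Cxcl3, 0.43 for Cxcl5, 0.42 for Cxcl11 and 0.41 for Ccl26. The others were Cxcl2, Ccl12, Ccl20 and Ccl25. These 10 members also rose with the array median, from r = 0.75 for Ccl4 and 0.70 for Ccl1 down to 0.28 for Ccl25. Members outside the set did so too, Ccl24 at 0.43, Ccl22 at 0.31 and Xcl1 at 0.30. Many genes rose with members of the set, 41.8% with Ccl1 and 39.3% with Ccl4. The leukocyte counts of the set read against that background. With Ccl4, which T cells and macrophages release, 9 of 14 NK and cytotoxic genes rose, and 1 of 14 with the array median as a term (7.23% of all genes). With Cxcl3 11 of 12 mast cell and eosinophil genes rose (37.1%), and 2 of 12 with that term (12.2%). With Ccl26, known in humans as eotaxin-3, 10 of 12 rose (36.1%) and 1 of 12 with that term (9.02%). Ccl1 and Ccl4 had r = 0.60 [0.40, 0.64, 0.33], rho = 0.36, permutation p = 1e-05 and 5e-05, but r = 0.16 with the array median as a term (limma adjusted p = 0.19) and r = 0.46 without animal 14312. With Cxcl11, 15 of 18 interferon response genes rose with that term (2.62%). The gut ligands Ccl20 and Ccl25 had 3 and 1 leukocyte genes rising under that term, against 34 and 7 without it (4.12% and 15.9% of all genes with the term, 32.2% and 22.6% without). What moves the array median was not tested.

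The ligands were last set beside the genes of their receptors, 29 pairs with both genes measured. In 17 of them the receptor gene rose with the ligand and in none did it fall, with limma calling 16.2% of all relations as rising. The share of all genes rising was higher for some of the ligands. It was 41.8% for Ccl1, 40.3% for Cxcl11, 36.8% for Cxcl5, 35.4% for Ccl24 and 27.5% for Ccl12. With the array median as a term 15 pairs were called. Ccl19 and Ccr7, the receptor of naive T cells, B cells and migrating dendritic cells, had r = 0.91 (95% interval 0.88 to 0.94) and rho = 0.62, r = 0.54 among numbered titles, 0.93 among named titles and 0.79 after leaving out the 2 tumors farthest from the Ccl19 median (limma adjusted p = 6.1e-47), and r = 0.67 without animals 14094, 14262 and 14322. Cxcr3, the T cell receptor of the interferon-inducible ligands, rose with Cxcl9 (r = 0.47 [0.55, 0.48, 0.48], rho = 0.40), Cxcl10 (r = 0.47 [0.52, 0.47, 0.48], rho = 0.45) and Cxcl11 (r = 0.37 [0.46, 0.35, 0.47], rho = 0.48, permutation p = 0.00026 and 1e-05). Ccr2 rose with Ccl7 (r = 0.50 [0.65, 0.37, 0.50], rho = 0.48), Ccl2 (r = 0.45 [0.58, 0.30, 0.41], rho = 0.43) and Ccl12 (r = 0.39 [0.42, 0.41, 0.44], rho = 0.41). Ccr3, of eosinophils, rose with Ccl24 (r = 0.40 [0.50, 0.36, 0.37], rho = 0.38, permutation p = 1e-05 and 5e-05) and Ccl11 (r = 0.33 [0.46, 0.28, 0.33], rho = 0.31, permutation p = 0.00016 and 0.00065). Cx3cr1 rose with Cx3cl1 (r = 0.35 [0.39, 0.33, 0.31], rho = 0.30, permutation p = 6e-05 and 0.00087).

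Ccr8 rose with Ccl1, with which 41.8% of all genes rose, and was not called with Ccl8, with which 5.94% rose. With Ccl1 it had r = 0.68 (95% interval 0.57 to 0.76) and rho = 0.40, r = 0.46 among numbered titles, 0.73 among named titles and 0.39 after leaving out the 2 tumors farthest from the Ccl1 median (limma adjusted p = 5.7e-17), with r = 0.39 under the array median term and 0.54 without animal 14312, whereas with Ccl8 it had r = -0.04 [0.13, -0.12, -0.046], rho = -0.021, permutation p = 0.64 and 0.81, limma adjusted p = 0.8 (95% interval -0.21 to 0.14). Several pairs were not called. Ccl17 and Ccr4 had r = 0.00 and rho = 0.046 (95% interval of r -0.17 to 0.18, permutation p = 0.997 and 0.6), against r = 0.37 [0.21, 0.39, 0.23], rho = 0.38, permutation p = 0.00092 and 5e-05 for Ccl22 and Ccr4. Ccl28 and Ccr10 had r = 0.047 [0.032, 0.059, -0.017], rho = -0.023, permutation p = 0.59 and 0.79, limma adjusted p = 0.86, and Xcl1 and Xcr1 r = 0.075 [0.23, 0.041, 0.15], rho = 0.18, permutation p = 0.42 and 0.046, limma adjusted p = 0.54. Of the measured ligands of Cxcr2, it rose with Cxcl5 only (r = 0.28 [0.39, 0.25, 0.36], rho = 0.44, permutation p = 0.0067 and 1e-05), and the limma adjusted p with Cxcl2, Cxcl1 and Cxcl3 was 0.072, 0.36 and 0.37. The differences between ligands of 1 receptor were not tested. Cxcl13 and Cxcr5 had r = 0.44 [-0.035, 0.56, 0.21], rho = 0.12, permutation p = 1e-05 and 0.17, and r = 0.08 without animals 14094, 14262 and 14322.

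**Figure D5:**
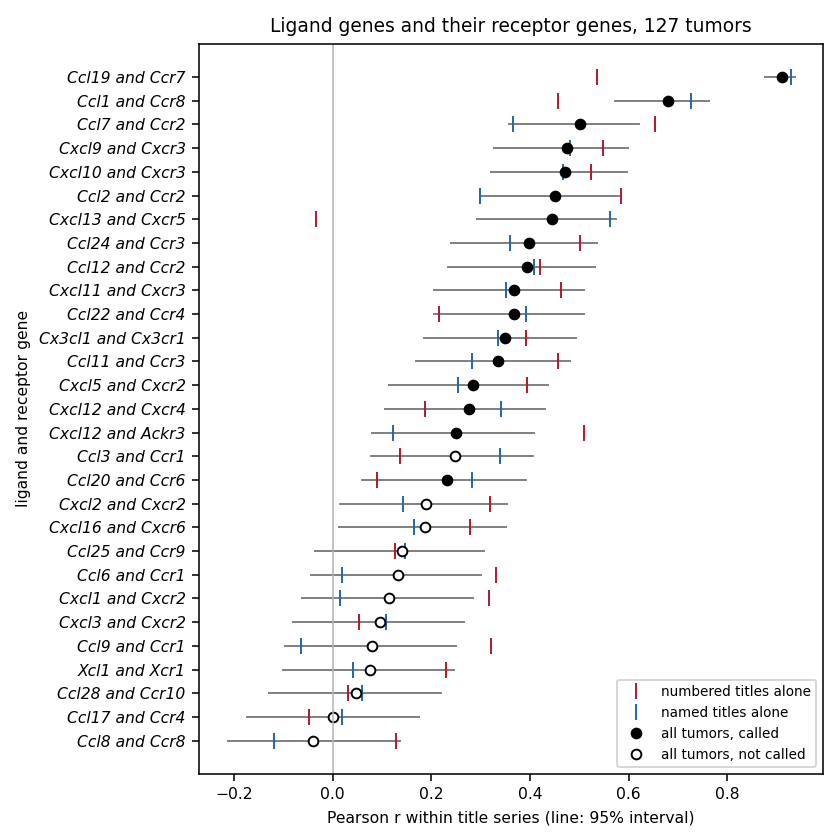
Pearson r within title series (horizontal axis) of 29 ligand and receptor gene pairs (vertical axis) over the 48 numbered and 79 named tumors, with the 95% interval as a line, filled points where the receptor gene was called at an adjusted p under 0.05 and open points where it was not. Red and blue ticks give r in the numbered and the named titles alone. Ccl19 with Ccr7 stands highest, and the ticks of Cxcl13 with Cxcr5 lie farthest apart.

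Fewer leukocyte genes rose when the pan-leukocyte gene Ptprc was held as a further term, and the drop was uneven over the members. Over all members, 1390 leukocyte relations rose without the term and 803 with it, and 335 fell with it. The count that fell was 160 without the 4 arrays of lowest correlation, 173 after quantile normalization, 79 on ranks, beside 628 that rose, and 15 in the numbered titles alone. For Ccl22, 11 of the 13 T cell and 11 of the 12 B and plasma cell genes remained called (12.4% of all genes), and for Ccl19 12 of 13 and 11 of 12 (4.33%). The macrophage genes that remained were 15 of 15 for Ccl9 (4.81%), 7 of 14 for Ccl7 (2.38%) and 8 of 16 for Ccl2 (1.51%). Interferon response genes remained in number with Ccl5, 17 of 17 beside 5 of its 13 T cell genes (6.36%). With Cxcl9, 15 of 15 interferon response genes remained and 0 of its 10 T cell genes (1.77%).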

How the data were processed

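Mammary tumors were profiled on Affymetrix Mouse Gene 1.0 ST arrays. The log2 values used are those the authors deposited, which the submitters' processing notes describe as RMA (version and annotation build: not given in the sources used here). RMA subtracts background, normalizes arrays processed together and summarizes probes, and the array medians still differed, so the title series was a term. Levels of different probesets are not comparable gene by gene, so placings by mean level are rough, and low probesets are compressed. Of 35556 probesets, 21789 name 1 gene, 1621 name several and 12146 are unnamed here, which left 19938 genes after the probeset of highest mean was taken for each. One array per animal was used, 48 with numbered and 79 with named titles, and 6 with the suffix r were left out. Of these, 2 were second arrays of an animal in the fits, averaged with the first where the alternative includes them, and 4 were the only array of an animal, which thus does not enter the main fits.

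Each member's z score was a term in a limma fit (lmFit and eBayes with trend) of all other genes beside the title series, with Benjamini-Hochberg adjustment over all genes of that fit and a threshold of 0.05 (R 4.3.3, limma 3.58.1). Correlations used values centered within title series, with 100000 permutations within series (Python 3.11.15, numpy 2.4.6, scipy 1.17.1). The 34 fits hold 677858 relations, of which 238 are named. Intervals are 95% Fisher intervals. P-values measure the spread between tumors. The fits were tested on simulated data first.

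Members, gene lists and tests were chosen with earlier results of these data known. Named were the called member pairs of the 12 highest and 4 lowest r with 1 sign in both title series, for each member the 3 leukocyte genes of largest t and the 3 genes of highest r, and all ligand and receptor pairs. Some pairs of neighboring ligands fall outside this rule and were chosen after their values were seen. Alternatives were the suffix r arrays, quantile normalization, 4 arrays of lowest correlation left out, each title series alone, the array median as a term, the mean of all probesets, low genes left out and ranks. Leaving out the animals named was chosen after seeing the data.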

Additional observations from a re-analysis of the deposited data

Results flagged for a closer look

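Among the 238 named relations, limma called a difference of slope between the title series for 12 (adjusted over all genes of each fit). All had a higher r in the named titles. For Ccl19 this held with Cr2, r = 0.22 among numbered and 0.95 among named titles (adjusted p = 0.000118), Ms4a1, 0.014 among numbered and 0.95 among named titles (adjusted p = 0.000118), Cd79a, 0.20 among numbered and 0.95 among named titles (adjusted p = 0.0109), and Bank1, 0.49 among numbered and 0.95 among named titles (adjusted p = 0.0176). These are B cell genes, and the named titles include the tumors of animals 14094, 14262 and 14322. Without them the adjusted p was 0.168, 0.0919, 0.383 and 0.586. Cxcl13 with its receptor gene Cxcr5 had r = -0.035 among numbered and 0.56 among named titles (adjusted p = 0.0238), with an adjusted p of 0.806 without the same tumors. Ccl28 with Cd28 had r = 0.25 among numbered and 0.55 among named titles (adjusted p = 0.00781), and an adjusted p of 1 without animal 14094.

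Cxcl2 differed with Hdc, r = 0.19 among numbered and 0.69 among named titles (adjusted p = 0.00494), Il5ra, 0.14 among numbered and 0.62 among named titles (adjusted p = 4.65e-05), Trem1, 0.13 among numbered and 0.63 among named titles (adjusted p = 0.000256), and Cxcl5, 0.40 among numbered and 0.65 among named titles (adjusted p = 0.00387). Il5ra also differed with Ccl1, 0.43 among numbered and 0.74 among named titles (adjusted p = 0.0215), and with Ccl4, 0.30 among numbered and 0.72 among named titles (adjusted p = 0.0248). Without animal 14312 the adjusted p of these 6 relations was between 0.0462 and 0.517. Of the 12 differences, 4 were called without the 4 arrays of lowest correlation, 7 after quantile normalization, 6 with the array median as a term and 0 on ranks, where 0.58 was the lowest adjusted p.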

How the results depend on the processing

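Total counts of calls kept within 1.5 times of their main value under every alternative except those named here. Restricting the fits to genes over the median level left 11 members, whose median SD was 0.667 against 0.351, and gave 7 members differing between title series, 27 member pairs, 223 leukocyte relations, 134 with Ptprc as a term and 1 ligand and receptor pair, against main counts of 22, 161, 1498, 1138 and 17. Fewer members and genes enter these counts by construction. The numbered titles alone, with 48 tumors, gave 62 member pairs, 582 leukocyte relations, 209 with the Ptprc term and 10 ligand and receptor pairs. Quantile normalization gave 14 members differing between title series and 735 leukocyte relations with the Ptprc term, the array median as a term 9 and 717, and ranks 707 leukocyte relations with that term, and the cause was not tested. Counts of falling relations moved more than totals. Member pairs below 0 were 1 with the suffix r arrays, 6 on ranks and 1 in the numbered titles alone, against 11. Leukocyte relations that fell were 42 with the suffix r arrays, 56 without the 4 arrays of lowest correlation, 54 on ranks, 63 after quantile normalization and 11 in the numbered titles alone, where the main fits held 1498 calls, 1390 of them rising. With the Ptprc term they were 160, 79, 173 and 15 under the last 4 of these, against 335. Limma called 0 member pairs as differing between title series in both fits, 26 at an unadjusted p under 0.05, and 1 with the suffix r arrays included. In at least 1 of the 2 fits it called 11 pairs, Cxcl2 with Cxcl5 among them. The 16 named member pairs kept their sign throughout. In 18 of 215 cases with a test the pair was no longer called, 12 of them for the 4 pairs with Cx3cl1. No paired analysis was possible because the arrays form 1 group, with 1 array per animal in the fits. Low-level probesets and the number of arrays limit the precision, and no background signal was given with these values.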
